A study of Homo sapiens with 6 samples.

Results

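Peptide phosphorylation by lysates of macrophages stimulated with IL-32 was compared with that by lysates of macrophages stimulated with IL-17. The comparison takes the 2 arrays titled IL-32 and the 2 arrays titled IL-17, which are 4 of the 6 arrays of the series, and leaves the unstimulated arrays out. All human peptides were kept, 298 of the 300 printed. IL-32 here is recombinant human IL-32γ and IL-17 is recombinant human IL-17A/F, each given at 20 ng/ml for 15 min. The cells in both groups were THP-1, a human monocytic leukaemia line, made adherent and macrophage-like with the phorbol ester PMA for 24 hr and rested for 24 hr before the cytokine. Both groups therefore come from 1 leukaemic line that had been exposed to PMA. Each group holds 1 array from each of 2 independent experiments (n = 2). The direct comparison asks which phosphorylation events differ between 2 cytokines that both act in inflammation.

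Both cytokines are known to switch on the same signalling routes. IL-17A/F is a heterodimer that binds the IL-17RA and IL-17RC receptor chains, and its signal passes through the adaptor Act1 and the ubiquitin ligase TRAF6 to the kinase TAK1, the IKK complex with NF-κB, and the MAP kinases. IL-32 has no settled receptor of its own. In monocytes and macrophages it is known to induce TNF, IL-6 and chemokines through NF-κB and the p38 MAP kinase. On these arrays a lysate phosphorylates short peptides copied from known sites, and a fluorescent phosphoprotein stain reads the phosphate. A value is thus kinase activity of the lysate on a printed peptide, and a peptide goes by its listed protein and residue. The arrays hold no cell type markers, so the labelled cell type could not be checked.

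Levels are log2 of the background-corrected, normalized intensity, and ran from 10.44 to 12.87 with a median of 11.47 over peptides. A difference is IL-32 minus IL-17 on that scale, as the mean of both experiments. Signal was low: the median ratio of foreground to local background was 1.27 and 1.26 on the IL-32 arrays of experiments 1 and 2, and 1.31 and 1.16 on the IL-17 arrays. Between 26.1% and 35.4% of spots were dimmer than their own background. Mean foreground stayed at or below background on all 4 arrays for 74 peptides, on both IL-32 arrays alone for 7 and on both IL-17 arrays alone for 5, and 212 peptides were measured in both groups. Below background is used in this sense throughout.

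The peptide of the NF-κB subunit p65 at S536 was lower after IL-32 than after IL-17, and that of the NADPH oxidase subunit p47phox at S370 was higher. The third peptide that passed the test was the chaperone HSP27 at S78/82/3, which was higher after IL-32 in experiment 2 and not in experiment 1. These 3 were called among 298 peptides (1.01%; 2 higher, 0.671%, and 1 lower, 0.336%) at an adjusted p under 0.05 in limma's paired fit with Benjamini-Hochberg adjustment. At an unadjusted p under 0.05 there were 15 peptides (5.03%), with 8 higher (2.68%) and 7 lower (2.35%) after IL-32. That share is close to what a cutoff of 0.05 passes on average where no peptide differs, so the count is no result about their pathways. Those 15 peptides came from the IKK and NF-κB pathway (p65, IKK-beta), the MAP kinase route (B-Raf, ERK2, HSP27 and the factor Elk-1), adhesion and Src-family signalling (paxillin, Pyk2, Cbl, CD45), cytoskeletal control (RAC1, RhoA), receptor tyrosine kinases (FLT3, IGF1R) and the oxidase (p47phox). With 2 pairs the fit has 1 residual degree of freedom, and limma's prior took all 298 peptides to 1 common standard error of 0.11, so a peptide's own spread does not enter its p. Without the replicate block 0 peptides passed after adjustment (limma) and 8 had an unadjusted p under 0.05.

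p65 (RELA) carries the S536 site in its transactivation domain, where IKK kinases phosphorylate it in cells exposed to inflammatory cytokines. Its level was 11.95 and 12.17 on the IL-32 arrays of experiments 1 and 2, against 12.39 and 12.68 on the IL-17 arrays. Both IL-32 arrays lay below both IL-17 arrays, and the IL-17 spot was the higher one in all 6 pairs of spots printed at the same position. Spots of 1 array are not replicates, here and below, and their pairs use the same values as the difference. The difference was -0.47 (-0.44 and -0.50 in the 2 experiments), with an adjusted p of 0.00575 in limma's paired fit. As a plain ratio of foreground to local background the peptide stood at 1.77 and 1.77 after IL-32, against 1.75 and 1.62 after IL-17, so this ratio was not lower after IL-32. With log2 of that ratio in place of the corrected intensity the difference was -0.03, and the local background of the IL-17 spot was the higher in all 6 pairs. The part of the background in the result was not tested.

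p47phox (NCF1) is the cytosolic organizer of the phagocyte NADPH oxidase, and its C-terminal serines, S370 among them, are phosphorylated when the oxidase is activated. The S370 peptide had levels of 12.46 and 12.72 after IL-32, against 12.22 and 12.01 after IL-17. The groups did not overlap, and the IL-32 spot was higher in all 6 spot pairs. The difference was 0.47 (0.24 and 0.71), with an adjusted p of 0.00575 in limma's paired fit. The ratio of foreground to background gave the same order, with 1.89 and 1.95 after IL-32 against 1.62 and 1.54 after IL-17. In 20 other settings the difference ran between 0.21 and 0.65, and within single experiments it was as far apart as the 0.24 and 0.71 above. Its adjusted p was under 0.05 (limma) in 4 of those 20 settings.

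HSP27 (HSPB1) is phosphorylated at S78 and S82 by the kinase MK2 downstream of p38. Its level was 10.92 and 12.71 after IL-32, against 11.05 and 11.31 after IL-17. The IL-32 array of experiment 2 stood apart from the other 3, on which the peptide was below background. The mean difference was 0.64 (-0.13 and 1.41), with an adjusted p of 1.79e-05 in limma's paired fit. Since the peptide was measured on 1 array, the difference is given without a fold, and without experiment 2 it was -0.13. It was the single peptide (0.336%) that met the study's own criteria, more than 1.5-fold with p under 0.06. HSP27 is named here because it passed the test and was chosen after its values were seen.

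**Figure D1:**
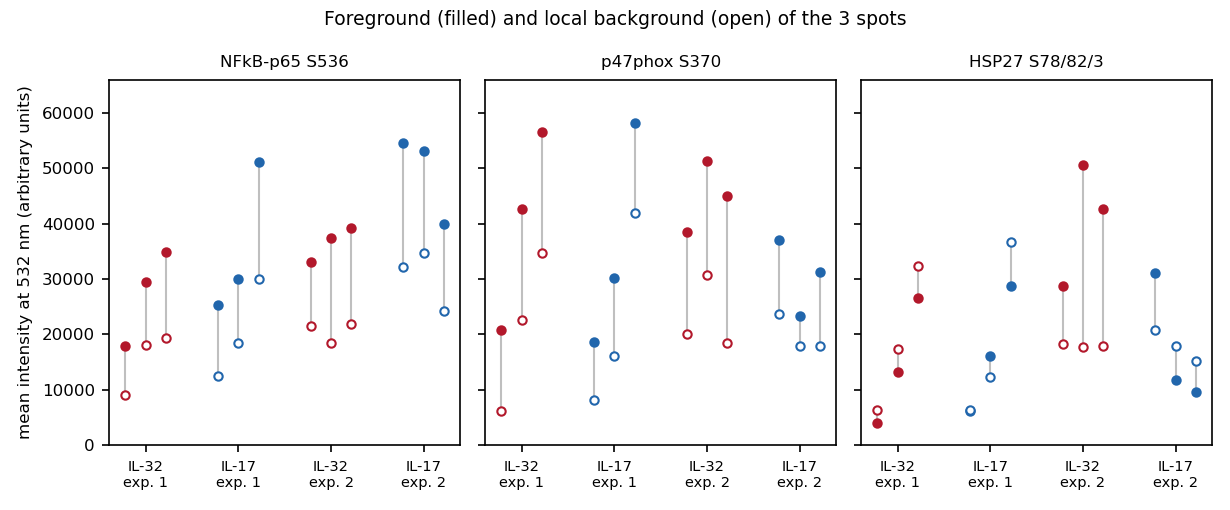
Mean foreground intensity (filled circles) and mean local background (open circles), in arbitrary units, of the 3 spots of p65 S536, p47phox S370 and HSP27 S78/82/3 on each array, with IL-32 in red, IL-17 in blue and spots ordered by printing position. All p65 and p47phox spots exceeded their background, while HSP27 exceeded it at all 3 positions on the IL-32 array of experiment 2 and at 2 of 6 positions on the IL-17 arrays.

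The differences in the 2 experiments did not follow each other over peptides. Their correlation was 0.00465 (Pearson) and -0.0148 (Spearman) over 298 peptides, which share arrays and normalization, and it was -0.0104 over the 164 peptides with all 12 spots above background. The sign was the same in both experiments for 140 peptides (47%), with 70 higher and 70 lower after IL-32 (23.5% each). The groups did not overlap for 67 peptides (22.5%), 38 of them higher (12.8%) and 29 lower (9.73%). The median absolute difference between the IL-32 and the IL-17 array was 0.08 in experiment 1 and 0.09 in experiment 2. Between experiments it was 0.11 for the IL-32 arrays and 0.12 for the IL-17 arrays. In the median, arrays of different cytokines within an experiment thus differed by less than arrays of 1 cytokine from different experiments.

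**Figure D2:**
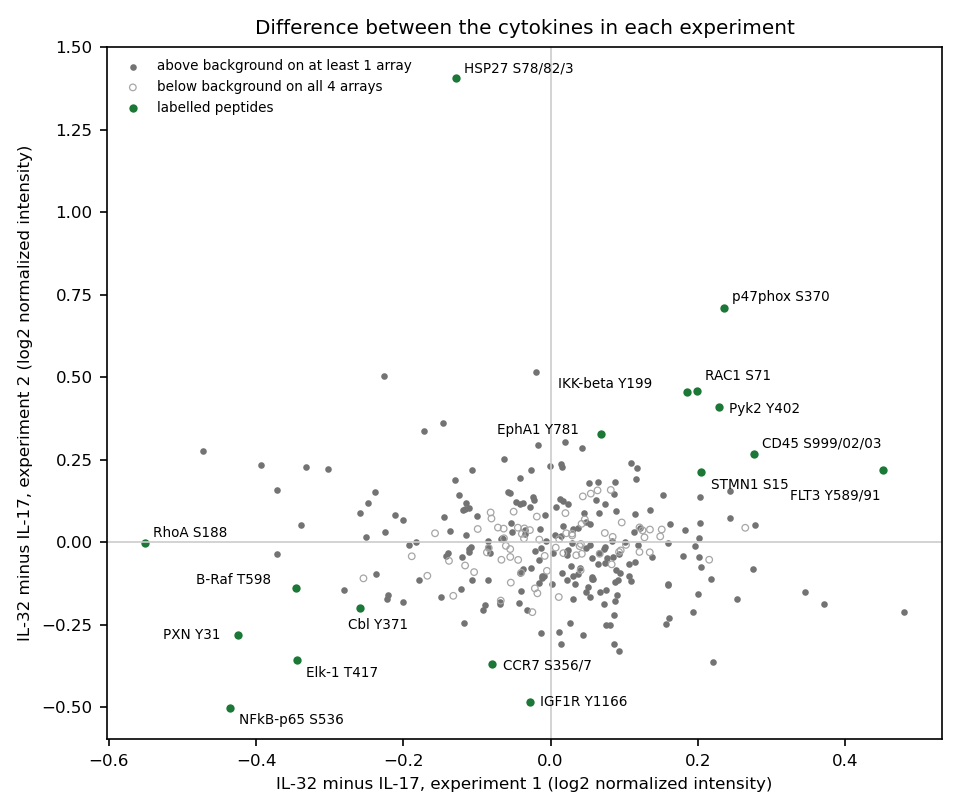
Each point is 1 of 298 peptides, with the IL-32 minus IL-17 difference (log2 normalized intensity) of experiment 1 on the horizontal axis and that of experiment 2 on the vertical axis. Filled points were above background on at least 1 array, open points on none, and green points are labelled. p47phox S370 and p65 S536 lie in opposite corners, HSP27 lies high on the vertical axis alone, and the cloud around 0 has no slope (r = 0.00465).

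Receptor-proximal kinases and adaptors came to 12 peptides of the Toll-like, IL-1 and TNF receptor routes, of which 5 were above 0 and 7 below, with a median of -0.01 (all 298 peptides: 146 above 0, 49%, and 152 below, 51%, median -0.00). Of these 12, 0 had an unadjusted p under 0.05 in limma's fit and 3 did not overlap, against 5.03% and 22.5% of all peptides. IRAK1, the kinase that carries the IL-1 receptor signal to TRAF6, had 5 printed sites. T209, a site phosphorylated early in its activation, had levels of 11.92 and 12.14 after IL-32, against 12.07 and 12.31 after IL-17 (difference -0.16, unadjusted p = 0.171, limma). Here each IL-32 array was the lower of its experiment, although the groups overlapped. T387 went in opposite directions (-0.47 and 0.28), T100 gave -0.07, and S376 and S568 were below background. Cot S400, from the kinase that activates MEK in macrophages, also differed in sign (-0.23 and 0.50). The 2 peptides of TAK1 and that of NIK, the kinase of the alternative NF-κB route, were below background in both groups.

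The IKK and NF-κB list held 17 peptides, 9 above 0 and 8 below, with a median of 0.01. Of these, 2 had an unadjusted p under 0.05 (5.03% of all peptides), 7 did not overlap (22.5% of all) and 5 had all their spots at or below background (18.5% of all). IKK-beta, the kinase that marks IκB for degradation, had levels at Y199 of 11.96 and 12.18 after IL-32, against 11.78 and 11.73 after IL-17. The IL-32 arrays were both above the IL-17 arrays, and 5 of 6 spot pairs had the IL-32 spot higher. The difference was 0.32 (0.19 and 0.46; unadjusted p = 0.00557, adjusted p = 0.193 in limma's fit). The other IKK-beta peptide, Y188, picked after its values were seen, had 11.64 and 11.44 after IL-32, against 11.69 and 11.41 after IL-17, with overlap (difference -0.01, with -0.05 and 0.03; unadjusted p = 0.926, limma). The other measured p65 site, S311, had levels of 11.43 and 11.60 after IL-32, against 11.38 and 11.76 after IL-17 (difference -0.06), and S276 was below background. The difference at S311 was smaller than the standard error of 0.11.

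MAP kinase cascades had 28 peptides, 13 above 0 and 15 below, with a median of -0.00. The sign was the same in both experiments for 9 of 28 (32.1%, against 47% of all peptides), 4 did not overlap (22.5% of all) and 3 had an unadjusted p under 0.05 (5.03% of all). Besides HSP27 these were B-Raf and ERK2. B-Raf, the kinase that feeds MEK and ERK, is printed with T598 of its activation segment, and this peptide had levels of 11.51 and 11.61 after IL-32, against 11.85 and 11.74 after IL-17. The groups did not overlap, with IL-32 lower (difference -0.24, unadjusted p = 0.0353, adjusted p = 0.751, limma). The plain ratio of foreground to background was 1.27 and 1.44 after IL-32, against 1.48 and 1.34 after IL-17. By this ratio IL-32 was lower in experiment 1 and higher in experiment 2. ERK2 Y205 had 11.66 and 12.26 after IL-32, against 11.68 and 11.74 after IL-17. One IL-32 array stood above the other 3, so its difference of 0.25 (unadjusted p = 0.0316, adjusted p = 0.724, limma) came from experiment 2 (0.52, against -0.02 in experiment 1).

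Transcription factors of the AP-1, ETS, CREB and IRF families and their co-activators had 23 peptides, 10 above 0 and 13 below, with a median of -0.01. Elk-1, which ERK phosphorylates in its transactivation domain, was the single member with an unadjusted p under 0.05. That is 1 of 23, against 5.03% of all peptides, and 5 of 23 did not overlap (22.5% of all). Elk-1 T417 had levels of 11.95 and 11.78 after IL-32, against 12.29 and 12.14 after IL-17. Both IL-32 arrays were below both IL-17 arrays (difference -0.35, with -0.34 and -0.36; unadjusted p = 0.00244, adjusted p = 0.146, limma). The IL-17 spot was the higher in 3 of 6 spot pairs. The plain ratio of foreground to background was 1.59 and 1.60 after IL-32, against 1.77 and 1.44 after IL-17. By this ratio IL-32 was lower in experiment 1 and higher in experiment 2. In 20 other settings the T417 difference ran between -0.49 and -0.0085. Elk-1 S389 gave -0.09. The co-activator p300 (EP300) at S1834 had 11.47 and 11.26 after IL-32, against 11.36 and 11.37 after IL-17, so its groups overlapped (difference 0.00), and S893 was below background.

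Because both cytokines are known to act through the same kinases, 13 more peptides of sites whose phosphorylation switches a protein on or marks it for degradation are given as values, with no count and no test over the set. They were picked after values were seen and leave out the sites with an unadjusted p under 0.05 that are described elsewhere, such as p65 S536, Pyk2 Y402, B-Raf T598 and IGF1R Y1166. TAK1 T184, Jun S63 and STAT6 Y641 were below background in both groups. The other 10 were IkB-alpha S32/36, TBK1 S172, MEK1 S217, ERK1 T202/4, p38-alpha T180/2, IRF-3 S396/8, Jak2 Y1007/8, STAT3 Y705, Syk Y525/6 and FAK Y397. Their differences lay between -0.09 (MEK1) and 0.20 (FAK).

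**Figure D3:**
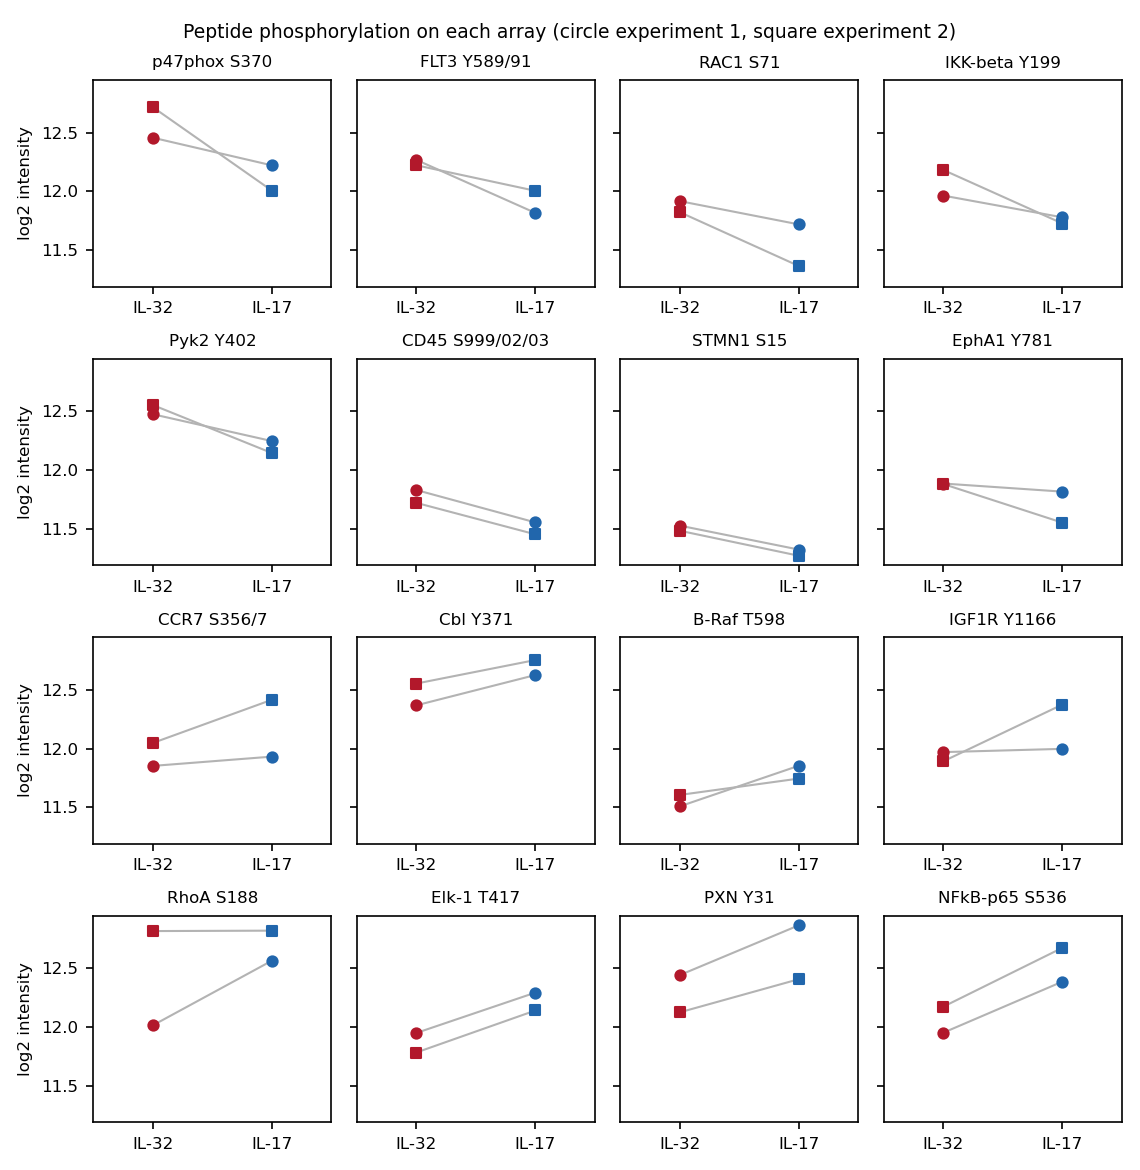
Level (log2 normalized intensity) on each array for the 8 peptides per direction with the smallest p among those with the same sign in both experiments, with IL-32 left of IL-17 in each panel, circles for experiment 1, squares for experiment 2 and lines joining arrays of 1 experiment. The upper 8 panels slope down and their groups do not overlap, and in 5 of the lower 8 the groups do not overlap either. Choosing peptides by p and direction fixes the slopes and favours groups without overlap (22.5% of all peptides).

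JAK-STAT and cytokine receptor peptides numbered 26, with 17 above 0 and 9 below and a median of 0.05 (0.01 and 0.07 in the 2 experiments). Of these, 0 had an unadjusted p under 0.05 in limma's fit (5.03% of all peptides). The groups did not overlap for 5, all with IL-32 higher (all peptides: 22.5% without overlap, 12.8% with IL-32 higher). gp130 (IL6ST), the receptor chain shared by IL-6 family cytokines, had levels at S782 of 11.14 and 11.43 after IL-32, against 11.12 and 11.12 after IL-17 (difference 0.16). The difference was almost wholly that of experiment 2. Signal at S782 was near background, with ratios of foreground to background of 0.96 and 1.24 after IL-32, against 1.01 and 0.87 after IL-17. Only 5 of its 12 spots exceeded their background. Its Y767 and Y814 sites, which dock STAT3, gave -0.02 and 0.06. The IL-10 receptor chain at Y496 had 11.56 and 11.52 after IL-32, against 11.44 and 11.32 after IL-17, and the groups did not overlap (difference 0.15, unadjusted p = 0.181, limma).

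PI3K, Akt, mTOR and translation control had 16 peptides, 8 above 0 and 8 below, with a median of 0.00. None had an unadjusted p under 0.05 in limma's fit (0 of 16), and 1 did not overlap, against 5.03% and 22.5% of all peptides. The double-stranded RNA-activated kinase PKR at T446, its activation loop, had 11.78 and 12.00 after IL-32, against 11.77 and 11.76 after IL-17 (difference 0.13). The translation repressor 4E-BP1 at T37 differed in sign between experiments (0.09 and -0.33).

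Adhesion and Src-family signalling had 16 peptides, of which 4 had an unadjusted p under 0.05 (5.03% of all peptides), 2 higher and 2 lower after IL-32. The lists were drawn up with earlier results of these data known, so they are not ranked by this count. Pyk2, a focal adhesion kinase relative that is activated by calcium and integrins, had levels at its autophosphorylation site Y402 of 12.47 and 12.55 after IL-32, against 12.25 and 12.14 after IL-17. The groups did not overlap (difference 0.32, unadjusted p = 0.00582, adjusted p = 0.193, limma). The leukocyte phosphatase CD45 at S999/02/03 had 11.83 and 11.72 after IL-32, against 11.55 and 11.45 after IL-17. Again both IL-32 arrays were above both IL-17 arrays (difference 0.27, with 0.28 and 0.27; unadjusted p = 0.0184, adjusted p = 0.498, limma).

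In the other direction, the adhesion adaptor paxillin (PXN) at Y31, a target of FAK and Src, had 12.44 and 12.13 after IL-32, against 12.87 and 12.41 after IL-17. The IL-32 array was the lower in each experiment, but the groups overlapped (difference -0.35, unadjusted p = 0.00228, adjusted p = 0.146, limma). Its sign turned without background subtraction (0.12). The ubiquitin ligase Cbl at Y371 had 12.37 and 12.55 after IL-32, against 12.63 and 12.75 after IL-17, without overlap (difference -0.23, unadjusted p = 0.0467, adjusted p = 0.927, limma). With median scaling between arrays it was 0.01. The plain ratio of mean foreground to mean background for Cbl was 1.96 and 2.14 after IL-32, against 1.89 and 1.98 after IL-17. This ratio was thus not lower after IL-32. Over the 16 peptides the median was -0.04, with 7 above 0 and 9 below, and the sign was the same in both experiments for 10 (62.5%).

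Among regulators of the cytoskeleton, RAC1, the GTPase that drives lamellipodia and also activates the NADPH oxidase, had levels at S71 of 11.92 and 11.82 after IL-32, against 11.72 and 11.36 after IL-17. The groups did not overlap (difference 0.33, with 0.20 and 0.46; unadjusted p = 0.0045, adjusted p = 0.192, limma). RhoA, the GTPase of stress fibres, had 12.02 and 12.82 at S188 after IL-32, against 12.57 and 12.82 after IL-17. Its difference of -0.28 (unadjusted p = 0.0163, adjusted p = 0.487, limma) was that of experiment 1 (-0.55, against -0.00 in experiment 2). The microtubule destabilizer stathmin (STMN1) at S15 had 11.53 and 11.48 after IL-32, against 11.32 and 11.27 after IL-17, with no overlap and with the same difference in each experiment (0.20 and 0.21; unadjusted p = 0.0702, limma).

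Receptor tyrosine kinases had 28 peptides, 11 above 0 and 17 below, with a median of -0.01. Of these, 9 did not overlap and 2 had an unadjusted p under 0.05 (22.5% and 5.03% of all peptides). FLT3, a receptor of haematopoietic progenitors that is also found on myeloid leukaemia cells, had levels at its juxtamembrane tyrosines Y589/91 of 12.27 and 12.22 after IL-32, against 11.82 and 12.00 after IL-17. The IL-32 arrays were both higher (difference 0.33, unadjusted p = 0.0038, adjusted p = 0.189, limma), although the IL-32 spot was the higher in only 3 of 6 spot pairs. The neighbouring FLT3 peptide Y597/9 had 11.89 and 11.84 after IL-32, against 11.81 and 12.09 after IL-17, with overlap (difference -0.09, with 0.08 and -0.25; unadjusted p = 0.456, limma). It was named with its values already known. The IGF-1 receptor at Y1166, in its activation loop, had 11.97 and 11.89 after IL-32, against 12.00 and 12.38 after IL-17. IL-32 was lower without overlap (difference -0.26, unadjusted p = 0.0267, adjusted p = 0.663, limma), with the gap mostly in experiment 2 (-0.48, against -0.03 in experiment 1). The plain ratio of foreground to background was 1.81 and 1.64 after IL-32, against 1.74 and 1.67 after IL-17. By this ratio IL-32 was higher in experiment 1 and lower in experiment 2, with overlap. The ephrin receptor EphA1 at Y781 gave 0.20 (unadjusted p = 0.0841, limma), and -0.02 with the median of its spots.

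Protein kinase C, phospholipase C and calcium proteins had 15 peptides, 8 above 0 and 7 below, with a median of 0.00. An unadjusted p under 0.05 in limma's fit was reached by 0 of 15, against 5.03% of all peptides. Phospholipase C gamma 1 (PLCG1), which makes diacylglycerol and inositol trisphosphate below tyrosine kinases, had 3 sites. Y771 had levels of 11.88 and 11.94 after IL-32, against 11.80 and 11.76 after IL-17, and the groups did not overlap (difference 0.13). Y472 gave 0.10 and Y783 gave 0.06, each with opposite signs in the 2 experiments. PKCE T710 gave -0.11.

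Besides p47phox, the list of NADPH oxidase and phagocyte proteins had 4 peptides, and its 5 split into 3 above 0 and 2 below, with a median of 0.00. The oxidase subunit p40phox at T154 had 11.86 and 12.25 after IL-32, against 11.79 and 12.06 after IL-17. Its IL-32 array was the higher in each experiment and the groups overlapped (difference 0.12). The chemokine receptor CCR7 at S356/7 had 11.85 and 12.05 after IL-32, against 11.93 and 12.42 after IL-17 (difference -0.22, unadjusted p = 0.0523, adjusted p = 0.974, limma), also with overlap. Its plain ratio of foreground to background was 1.74 and 1.77 after IL-32, against 1.74 and 1.67 after IL-17. By this ratio IL-32 was not the lower in experiment 2. The p40phox peptide was picked after its values were seen, and it is listed under the database identifier of p47phox. In this list only p47phox passed the test.

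Apoptosis and stress proteins had 17 peptides, 9 above 0 and 8 below, with a median of 0.01. HSP27 was the single member with an unadjusted p under 0.05 (1 of 17, against 5.03% of all peptides). Caspase-8 S347 gave -0.17 (-0.24 and -0.10). DAPK1, a death-associated kinase, had 11.29 and 11.36 at S308 after IL-32, against 11.26 and 11.48 after IL-17, so the groups overlapped (difference -0.05), and S735 was below background. Cell cycle and DNA damage proteins had 10 peptides, 8 above 0 and 2 below, with a median of 0.05. Of these, 0 had an unadjusted p under 0.05 in limma's fit (5.03% of all peptides). The groups did not overlap for 3, all with IL-32 higher (22.5% of all peptides did not overlap, 12.8% with IL-32 higher). The phosphatase Cdc25A, which releases cyclin-dependent kinases, gave 0.17 at S88 (0.12 and 0.23), and p53 gave -0.14 at S215.

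In the list of PKA, AMPK, PKG and metabolic enzymes there were 3 peptides. PKG1 T58, from the cGMP-dependent kinase, gave -0.11 in each experiment and PKACa T195/7, from the catalytic PKA subunit, gave -0.05. The list of lymphocyte signalling proteins, some of which, such as Btk, macrophages also make, held 7 peptides, 3 above 0 and 4 below. An unadjusted p under 0.05 in limma's fit was reached by 0 and 0 were without overlap, against 5.03% and 22.5% of all peptides. All 7 had at least 1 spot above background. Signal here is no evidence that the protein was present in the cells. The T cell co-receptor CD28 at Y206/9 had 11.29 and 11.85 after IL-32, against 11.57 and 11.99 after IL-17 (difference -0.21), with the IL-32 array lower in each experiment and with overlap.

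**Figure D4:**
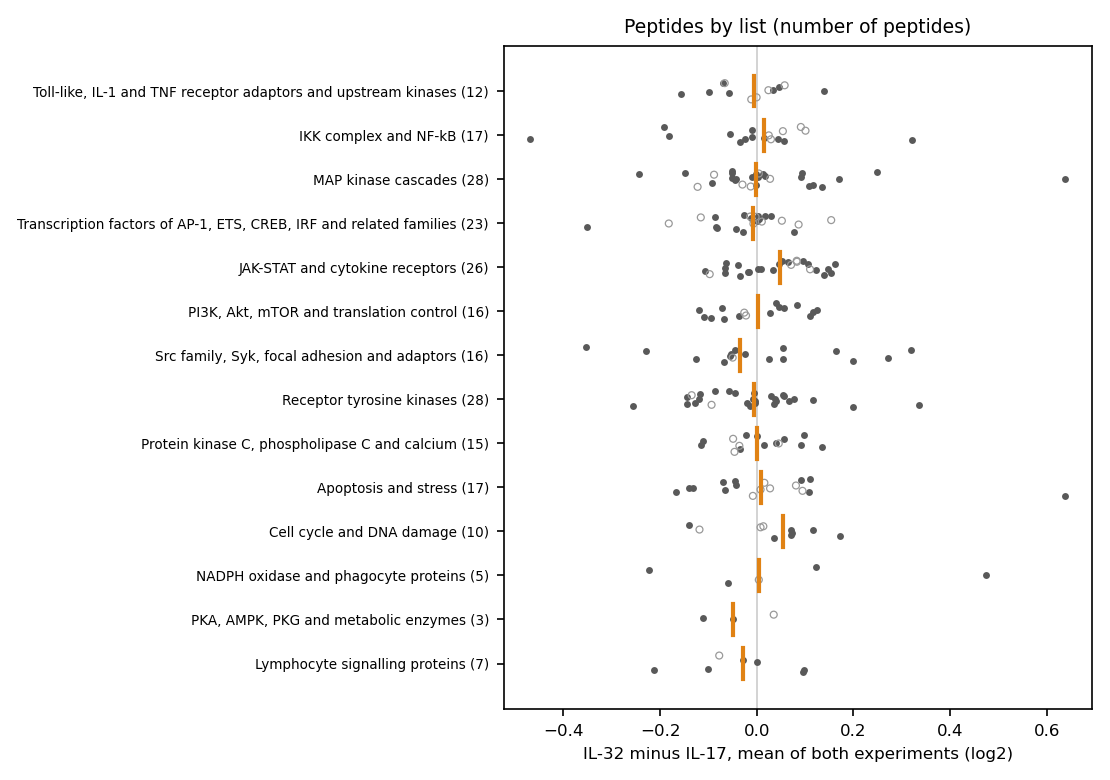
IL-32 minus IL-17 (log2, mean of both experiments) for every peptide of 14 lists, with the number of peptides in parentheses, open circles for peptides below background on all 4 arrays and orange bars for the list medians. The list medians run from -0.05 to 0.05 after rounding, and single peptides such as p65 S536, p47phox S370 and HSP27 stand apart.

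Signs were also counted over the sites of 1 protein and by residue, where 49% of all peptides were above 0 and 51% below. Of 81 proteins with at least 2 printed peptides, 42 had peptides on both sides of 0 and 39 on 1 side. Of the 12 proteins with at least 3, 6 were on both sides and 6 on 1 side. These counts include peptides below background. They were not tested against signs unrelated within a protein, so they are no result about the proteins. The mean differences of the 5 IRAK1 sites were below 0 and those of the 3 PLCG1 sites above it. They were small, from -0.16 to -0.00 for IRAK1 and from 0.06 to 0.13 for PLCG1. IRAK1 S376 and S568 were below background. IRAK1 T387 and S568 and PLCG1 Y472 and Y783 had opposite signs in the 2 experiments. By residue, 50 tyrosine peptides were above 0 and 55 below, 73 serine peptides were above and 56 below, and 20 threonine peptides were above and 38 below. The threonine peptides had a median of -0.04, with the same sign in both experiments for 28.

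**Figure D5:**
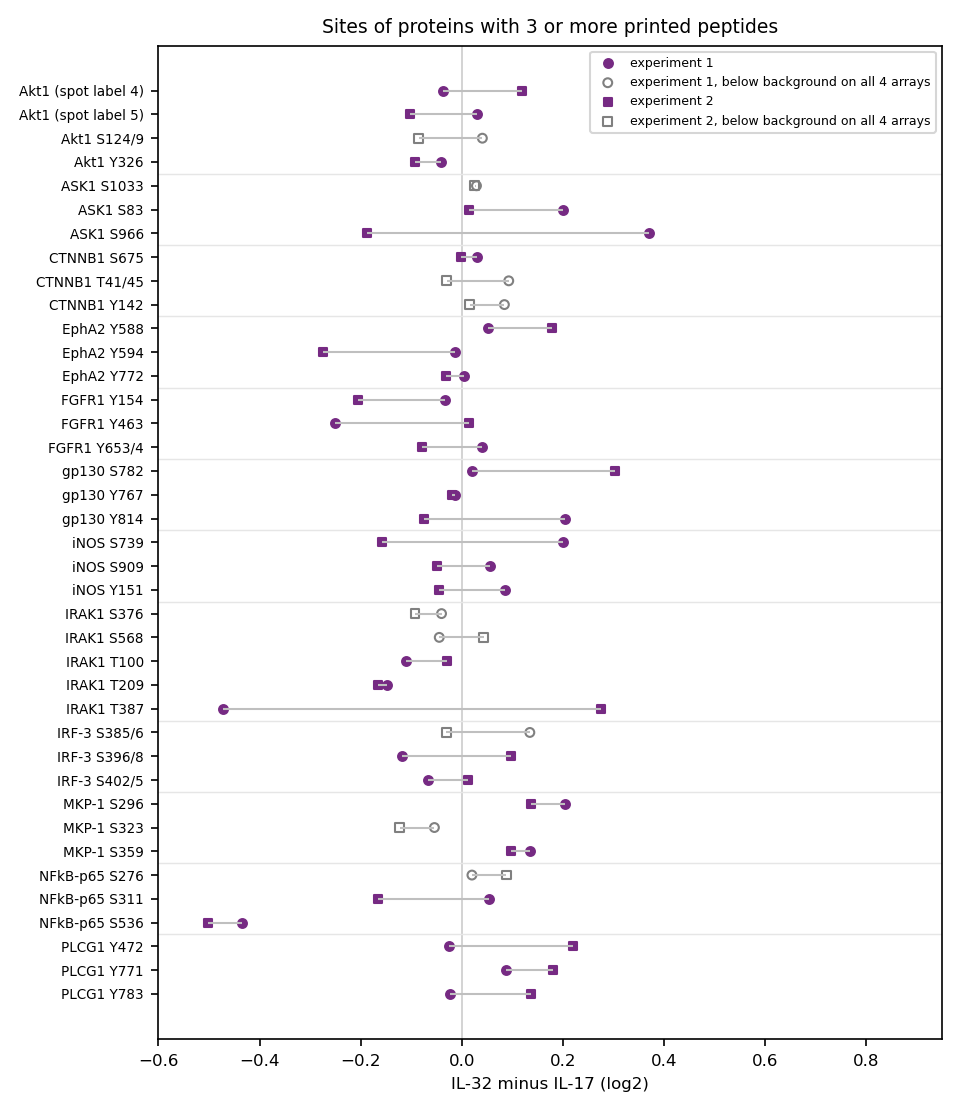
IL-32 minus IL-17 (log2) in experiment 1 (circles) and experiment 2 (squares) at each printed site of the 12 proteins with at least 3 peptides, with open symbols for peptides below background on all 4 arrays. The p65 site S536 is far below 0 in both experiments, the other p65 sites are near 0, and IRAK1 T387 and ASK1 S966 span 0.

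The lists cover 226 of the 298 peptides. The other 72 peptides were split evenly, with 36 above 0 and 36 below, from -0.20 (the kinase Mos at S25) to 0.16 (the S6 kinase p70S6Kb at S473/4). Among them 0 had an unadjusted p under 0.05 in limma's fit, against 5.03% of all peptides. The lists were drawn up with earlier results of these data known, so this count is no result about the unlisted peptides. The 55 peptides with no spot above background on any of the 4 arrays (18.5%) had a median absolute difference of 0.05, against 0.07 for the 164 with all 12 spots above it. Of the 15 peptides with an unadjusted p under 0.05, 12 had all 12 spots above background (164 of all 298). The sign was the same in both experiments for 13 of the 15 (47% of all peptides). With 1 common standard error the p picks the largest mean differences, which favours the same sign, so this is no support for them. All 6 spot pairs pointed 1 way for 4 of the 298 peptides, which was not tested. p47phox S370 and Src S74 were higher after IL-32, and p65 S536 and Kit Y721 were higher after IL-17. Src S74 did not exceed background on either IL-17 array and Kit Y721 on none of the 4 arrays, and both were picked after their values were seen.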

How the data were processed

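Phosphorylation was measured on 1 peptide array per sample, with 2 arrays after IL-32 and 2 after IL-17, grouped by sample title. Per the file headers, each spot has 2 deposited values, a mean foreground and a mean background intensity. The authors' series table, used as an alternative, holds a signal per peptide that, set against the spot files, is the mean of foreground minus background divided by 1 constant per array, with a floor of 0.01. The origin of this constant, the scanner and the image software were not given in the sources used here.

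From these intensities, normexp (limma, offset 50, every spot of the array) removed background. After 2 non-human peptides were dropped, log2 values of 894 spots per array were quantile-normalized between the 4 arrays, and spots were averaged by peptide. Quantile normalization makes each difference relative to the other peptides. Groups were compared with lmFit and eBayes (limma 3.58.1, R 4.3.3), two-sided, with the replicate number as a block and Benjamini-Hochberg adjustment over 298 peptides. The scripts were tested on simulated data. The pairing comes from the replicate numbers in the titles and the independent experiments of the design text, and deviations of same-numbered arrays from their group means had a correlation of 0.39. An exact permutation test cannot go below p = 0.333 for 2 arrays against 2, or 0.5 for 2 pairs. The number of arrays limits the precision. Spot pairs compare the normalized spots of an IL-32 and an IL-17 array at the same printing position within an experiment.

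The text names up to 8 peptides per direction that exceed background in both groups and have the same sign in both experiments, by adjusted p, then the study's criteria, then unadjusted p. It adds up to 2 members per list by p, the peptides of DAPK1 and p300, and all sites of a named protein with at least 3. The members, lists and rule were chosen with earlier results of these data known. The listed p40phox peptide carries the accession of p47phox, an FRS3 peptide that of FRS2, and PLCB1 S887 is printed under 2 spot labels whose differences were 0.09 apart. For 5 peptides no residue is listed. Peptide sequences were not used here, and some peptides and 1 list are not reported here.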

Additional observations from a re-analysis of the deposited data

How the results depend on the processing

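The calls depend on the fit. Without the replicate block, which ignores the pairing of arrays by experiment, 0 peptides passed after adjustment (limma), 8 had an unadjusted p under 0.05 and 0 met the criteria of the study (1.5-fold, p under 0.06). These 3 counts are given in this order from here on, against 3, 15 and 1 with the block. They were 0, 10 and 0 with all 6 arrays and the block, and 0, 4 and 0 with all 6 and no block. Other counts were 0, 16 and 11 with plain subtraction floored at 1, 8, 41 and 9 on raw foreground, 1, 17 and 0 with foreground over background, 0, 20 and 1 with median scaling, 6, 88 and 17 without normalization, where the median peptide lay 0.36 higher after IL-32, 0, 8 and 0 with the median of the 3 spots, 2, 13 and 0 over 211 peptides passing a filter on dim ones, and 5, 11 and 12 over 190 peptides with the authors' series table. With median scaling 19 of the 20 were higher after IL-32, against 8 of 15. Leaving out 1 array, in fits with no block where the lone array is assumed to vary like the other group, gave 0 to 1, 5 to 15 and 1 to 2, and the 1 adjusted call was HSP27 without IL-32 replicate 1. Chosen after the data were seen, leaving out a printing position gave 0 after adjustment in each case and 10, 35 and 24 unadjusted for positions 1, 2 and 3. A normexp offset of 10, quantile normalization within a printing position (2 after adjustment) and, chosen later, a robust prior kept all 3 counts within 1.5 times.

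Of 44 named peptides with a tested difference, 15 kept their sign in all settings tested, p65 S536 and p47phox S370 among them. These 2 had an adjusted p under 0.05 (limma) in only 4 of the 20 settings each. Keeping the sign does not mean keeping the size. The value nearest 0 was -0.026 for p65 S536, -0.0085 for Elk-1 T417, -0.012 for IGF1R Y1166, 0.019 for Pyk2 Y402 and 0.020 for STMN1 S15. Signs turned as follows, and the cause was not tested. On raw foreground, without background subtraction, DAPK1 S308 was 0.12, gp130 Y767 0.20, FLT3 Y597/9 0.21, IKK-beta Y188 0.053 and PXN Y31 0.12. With plain subtraction DAPK1 S308 was 0.89, gp130 Y767 0.0071, IRAK1 T100 0.21, p300 S1834 -0.045 and PKCE T710 0.29. With foreground over background IRAK1 T209 was 0.069, IRAK1 T387 0.033, p65 S311 0.041, p300 S1834 -0.079 and PKACa T195/7 0.0022. With median scaling 4E-BP1 T37 was 0.014, FLT3 Y597/9 0.071, IKK-beta Y188 0.043 and Cbl Y371 0.010. With quantiles within a position p300 S1834 was -0.045. With the median of the spots Cot S400 was -0.19, EphA1 Y781 -0.016, IRAK1 T387 0.025, p300 S1834 -0.098, PLCG1 Y771 -0.027 and PLCG1 Y783 -0.078. With the series table gp130 Y767 was 0.71, IKK-beta Y188 0.030 and p300 S1834 -0.32. Without position 1 Cot S400 was -0.045, Elk-1 S389 0.027, gp130 Y767 0.0048, IKK-beta Y188 0.040 and PKACa T195/7 0.011. Without position 2 4E-BP1 T37 was 0.15, EphA1 Y781 -0.15, gp130 Y767 0.034, FLT3 Y597/9 0.047, IKK-beta Y188 0.039, p53 S215 0.015 and PKG1 T58 0.019. Without position 3 gp130 Y814 was -0.039, IRAK1 T387 0.18, p300 S1834 -0.055 and PLCG1 Y783 -0.064.

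Leaving out an array or an experiment gave ranges across 0 for 20 of the 44. They were -0.33 to 0.092 for 4E-BP1 T37, -0.25 to 0.080 for FLT3 Y597/9, -0.16 to 0.14 for IKK-beta Y188, -0.47 to 0.023 for CCR7 S356/7, -0.51 to 0.069 for CD28 Y206/9, -0.018 to 0.36 for Cdc25A S88, -0.23 to 0.50 for Cot S400, -0.16 to 0.068 for DAPK1 S308, -0.054 to 0.52 for ERK2 Y205, -0.18 to 0.0040 for Elk-1 S389, -0.47 to 0.28 for IRAK1 T387 and -0.25 to 0.14 for p65 S311. They were -0.12 to 0.012 for PKACa T195/7, -0.026 to 0.22 for PLCG1 Y472, -0.034 to 0.15 for PLCG1 Y783, -0.72 to 0.11 for RhoA S188, -0.057 to 0.026 for gp130 Y767, -0.075 to 0.21 for gp130 Y814, -0.10 to 0.11 for p300 S1834 and -0.25 to 1.41 for HSP27 S78/82/3. Of the other 24, 18 moved by over 1.5 times, among them p47phox S370 (0.24 to 0.71), PXN Y31 (-0.60 to -0.13), Cbl Y371 (-0.33 to -0.12), EphA1 Y781 (0.061 to 0.34), IRAK1 T209 (-0.29 to -0.034), RAC1 S71 (0.16 to 0.52) and IGF1R Y1166 (-0.48 to -0.028). The 6 within 1.5 times were p65 S536 (-0.62 to -0.32), Elk-1 T417, Pyk2 Y402, CD45 S999/02/03, STMN1 S15 and the IL-10 receptor chain at Y496. The HSP27 call was lost without IL-32 replicate 2 (-0.25). Low signal over background limits what these arrays can show.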
